A study of Mus musculus with 16 samples.

Results

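The 78 genes described here encode proteins named for the mitochondrial ribosome. They were the rows of the counts table, out of 24454, whose mouse symbol starts with Mrpl or Mrps and a digit, whose symbol does not mark a pseudogene, and whose mean count over the 16 libraries was at least 50. All 78 rows with such a symbol met the minimum, 49 of them Mrpl and 29 Mrps, and they lie on 17 chromosomes. RNA was sequenced from gastrocnemius, a hindlimb muscle, of 3-month-old mice in 4 groups. HSALR mice are homozygous for a human skeletal actin (HSA) transgene with long CTG repeats, which is expressed in skeletal muscle, and they model myotonic dystrophy type 1 (DM1). They come from a single transgenic line on the FVB/N background, and FVB/N mice without the transgene were the controls. Mice of both genotypes received vehicle (5 HSALR and 3 FVB mice) or AICAR, an activator of the energy sensor AMPK, at 500 mg/kg for 7 days (5 HSALR and 3 FVB mice). Each mouse gave 1 library. The human transgene was not analysed here, so the genotype was not checked from its transcript.

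Mitochondria hold their own ribosomes, which translate only the few membrane proteins encoded in mitochondrial DNA, all of them parts of the respiratory chain and ATP synthase. The ribosomal RNAs come from mitochondrial DNA, whereas every ribosomal protein is encoded in the nucleus, made in the cytosol and imported, so that building the particle needs output from both genomes. The large subunit forms peptide bonds and the small subunit reads the messenger RNA. Many of the proteins descend from those of bacterial ribosomes, and the others were added during the evolution of mitochondria. In muscle, which depends on oxidative phosphorylation, genes of this kind are known to respond to the co-activator PGC-1alpha and to factors such as NRF1, GABP (an ETS family factor) and YY1.

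Of the 78 genes, 51 encode large-subunit proteins and 26 encode small-subunit proteins. The large-subunit group includes Mrps30 and Mrps18a, whose names are older than their placement in the structure. The remaining gene, Mrps36, is now placed in the alpha-ketoglutarate dehydrogenase complex of the citric acid cycle, not in the ribosome. Among the ribosomal proteins, 28 of the large subunit and 16 of the small subunit were classed as having a bacterial counterpart. The remaining 23 and 10 were classed as found only in mitochondria. That class includes Mrps18a and Mrps18b, although their proteins are related to a bacterial protein.

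The promoters of 3 of these genes are shown because the genes were among the called genes with the largest increases and because they carry the motif letters of factors named above. Each run covers 250 bases before to 50 bases after a RefSeq start site of GRCm38.p6 and is written 5′ to 3′ on the strand of the gene. Capitals mark CCGGAAG (ETS) or AAGATGGC (YY1), on either strand. Mrps12 lies on the minus strand at chr7:28741772-28742071, Mrps27 on the plus strand at chr13:99344536-99344835 and Mrpl42 on the minus strand at chr10:95501900-95502199.
Mrps12: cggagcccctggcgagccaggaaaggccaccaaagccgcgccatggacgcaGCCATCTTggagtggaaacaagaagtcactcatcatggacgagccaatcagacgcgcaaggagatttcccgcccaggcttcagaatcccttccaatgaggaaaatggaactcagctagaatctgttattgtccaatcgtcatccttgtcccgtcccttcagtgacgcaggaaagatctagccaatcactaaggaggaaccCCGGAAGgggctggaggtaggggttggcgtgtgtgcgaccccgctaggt
Mrps27: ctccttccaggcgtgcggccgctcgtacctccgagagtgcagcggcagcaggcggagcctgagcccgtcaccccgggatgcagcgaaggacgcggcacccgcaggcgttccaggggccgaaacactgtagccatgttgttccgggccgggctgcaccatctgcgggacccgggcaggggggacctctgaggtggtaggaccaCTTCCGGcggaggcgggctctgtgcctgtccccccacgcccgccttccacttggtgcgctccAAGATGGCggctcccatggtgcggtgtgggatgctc
Mrpl42: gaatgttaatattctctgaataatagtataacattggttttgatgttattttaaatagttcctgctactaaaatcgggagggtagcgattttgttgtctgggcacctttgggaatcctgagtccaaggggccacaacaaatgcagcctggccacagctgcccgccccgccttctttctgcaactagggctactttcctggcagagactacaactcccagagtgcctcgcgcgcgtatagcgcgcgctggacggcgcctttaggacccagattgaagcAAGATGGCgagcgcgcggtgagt

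RefSeq promoter windows were at hand for 69 of the 78 genes (75 windows of 300 bases). The ETS letters CCGGAAG were in 26 of these windows (34.7%), as compared to 11.6% of the 21230 windows of coding genes and 8.86% of all 32817 mouse promoter windows, all of the same length. The YY1 letters AAGATGGC were in 12 windows (16%, against 3.04% of coding and 2.74% of all), and the NRF1 letters CGCATGCG in 7 (9.33%, against 2.501% and 1.86%). The letters TCAAGGTCA of the estrogen-related receptors were in 0 windows (0.334% of coding and 0.424% of all). In total 38 genes had at least 1 of the ETS, YY1 and NRF1 motifs, and in 0 windows did 2 of them overlap. A match to these letters is a description of the sequence and does not show that a factor binds there.

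The libraries held 64890014 to 81987726 counts each, and every pair of mice in a group differed by more than sampling noise (chi-square per degree of freedom 25.1 to 141 over 26 pairs). Markers of skeletal muscle summed to between 115520 and 167570 CPM (counts per 1000000 counts of the tested genes, with library sizes scaled by TMM) in each library. Markers of the epidermis were uneven between mice. Their summed level ran from 0.256 to 92.3 CPM in vehicle-treated FVB mice, from 0.243 to 104 in AICAR-treated FVB mice, from 0.612 to 187 in vehicle-treated HSALR mice and from 0.242 to 0.371 in AICAR-treated HSALR mice.

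All 78 genes passed the filter on low counts. Their mean count ran from 57.4 for Mrpl23 to 10161.5 for Mrpl12, and every gene other than Mrpl23 had a mean of at least 768.6 counts. Thus counting error was small for all but Mrpl23, a large-subunit gene with a named pseudogene (Mrpl23-ps1) that lay between 0.484 and 1.21 CPM. The coefficient of variation between mice of a group had a median over the genes of 3.62% to 5.15%, depending on the group.

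Levels of different genes were compared per kilobase of the deposited gene length. In vehicle-treated FVB mice the level had a median of 27.2 CPM per kilobase over the 78 genes, with an interquartile range of 17.9 to 45.2. Mrpl42 was first at 133 ± 12.7 CPM per kilobase (SD, n = 3), followed by Mrps21 at 126 ± 9.17, Mrpl30 at 125 ± 6.10 and Mrpl12 at 122 ± 4.94. These 4 levels lay within each other's spread. Mrpl12 encodes the protein of the flexible stalk that recruits translation factors. The last places were held by Mrps25 at 5.24 ± 0.303 CPM per kilobase, Mrpl19 at 4.79 ± 0.153 and Mrpl23 at 1.92 ± 0.264. The median was 28.0 CPM per kilobase for large-subunit and 24.4 for small-subunit genes.

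Summed over the 78 genes, the level was 2840, 2934 and 2990 CPM in the vehicle-treated FVB mice and 3261, 3312 and 3328 in the AICAR-treated FVB mice. It was 3129, 3202, 3338, 3366 and 3434 CPM in the vehicle-treated HSALR mice and 3397, 3572, 3577, 3638 and 3696 in the AICAR-treated HSALR mice. The vehicle-treated FVB mice were below every other mouse, while the AICAR-treated FVB mice lay within the range of the vehicle-treated HSALR mice. In a bulk sample, fewer cells of a type and less RNA per cell cannot be told apart.

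**Figure D1:**
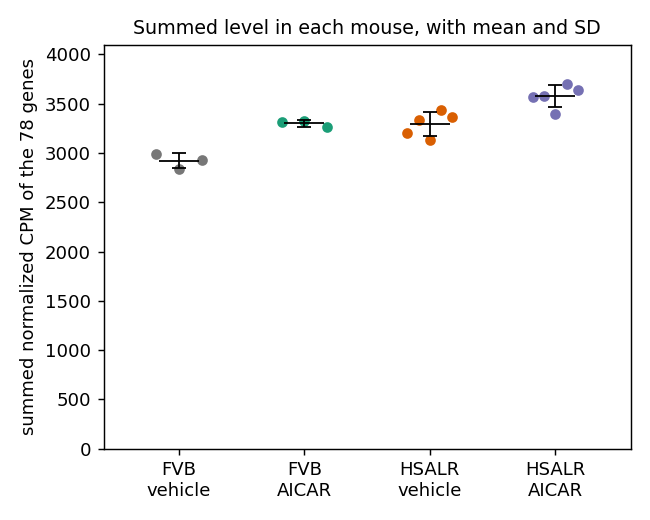
Summed normalized CPM of the 78 mitochondrial ribosomal protein genes in each mouse (points), by genotype and treatment, with the mean and SD of each group. The 3 vehicle-treated FVB mice sit between 2840 and 2990 CPM, below the 13 other mice.

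To see how the genotype bears on these genes, vehicle-treated HSALR mice (n = 5) were compared to vehicle-treated FVB mice (n = 3). Of the 78 genes, 44 were higher in HSALR muscle and 0 were lower, by the quasi-likelihood test of edgeR with Benjamini-Hochberg adjustment over all 15487 genes tested and a threshold of 0.05. The 44 are 56.4% of the genes, while 15.4% of all genes tested were higher and 11.5% lower. At an unadjusted p under 0.05 only 1 gene was lower, Mrpl23, and DESeq2 and limma with voom called 0 lower. The median log2 fold change of the 78 genes was 0.19 (1.14-fold), as compared to 0.01 over all genes, and 71 of the 78 were above 0. Small-subunit genes were higher in 16 of 26 cases and large-subunit genes in 27 of 51. In 46 genes every HSALR mouse was above every FVB mouse, which was also so for 16.8% of all genes. In the same comparison 5 of 5 endothelial markers and 4 of 8 markers of slow or oxidative fibres were lower in HSALR mice. Their part in the result was not tested.

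The count depended on gene length. The 78 genes are short, with a median of 1053 bases against 2883 over all genes tested, and in this comparison shorter genes were higher overall (Spearman's rho -0.26 between length and fold change across the 15487 genes, which share their libraries). Within the 78 genes alone, rho was 0.004. Among the 1318 tested genes of at most 1053 bases, 30.2% were higher, with a median log2 fold change of 0.17. When the trend with gene length was removed from every library, an alternative chosen after seeing the data, 18 of the 78 genes were higher and 5 lower (Mrpl14, Mrpl23, Mrps16, Mrps21 and Mrps23), and the median log2 fold change was 0.07. The higher genes were then 23.1% of the 78, as compared to 13.6% of all genes, and the lower ones 6.41%, as compared to 11.1%. All 18 belonged to the 44. The cause of the trend was not tested.

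**Figure D2:**
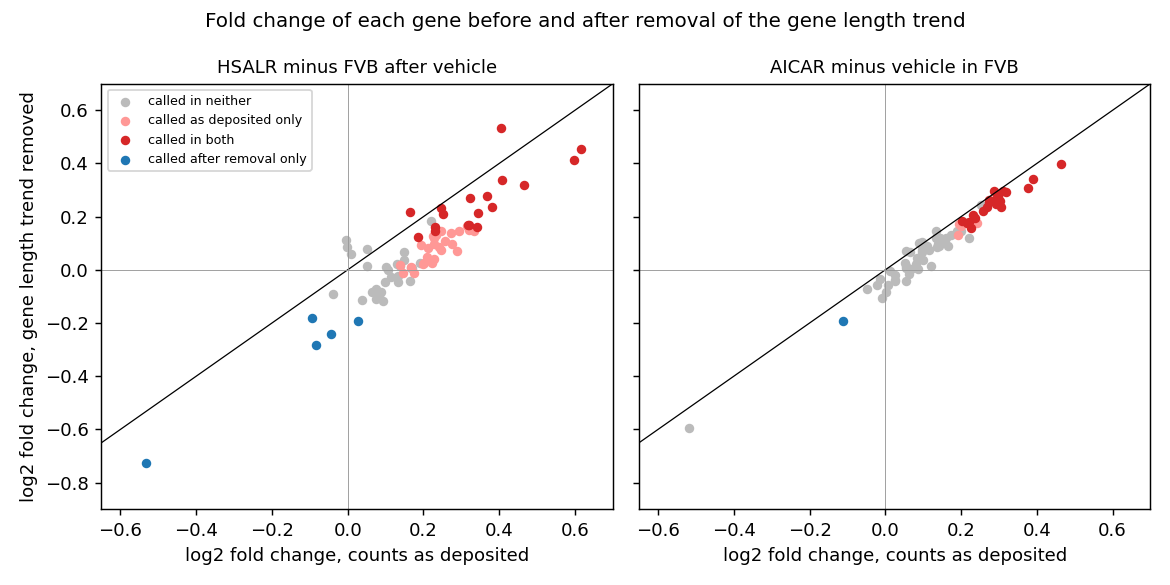
Log2 fold change of each of the 78 genes with the counts as deposited (x axis) and after the trend with gene length was removed from each library (y axis), for HSALR minus FVB after vehicle (left) and AICAR minus vehicle in FVB (right); the line marks equal values and colours mark calls at an adjusted p under 0.05. On the left most genes lie below the line and 18 of 44 higher calls remain, while on the right 21 of 25 remain.

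Among the called genes, the largest increases were those of Mrps34, Mrps12 and Mrpl48, and each of them remained higher after removal of the length trend. Mrps34 (Entrez 79044, chr17:24895120-24896289, plus strand of GRCm38) encodes a small-subunit protein found only in mitochondria. It was at 36.6, 34.2 and 36.1 CPM in the vehicle-treated FVB mice, and at 50.7, 54.7, 54.1, 56.1 and 57.4 in the vehicle-treated HSALR mice. The groups were far apart, with every HSALR mouse above every FVB mouse. The log2 fold change was 0.62 (standard error 0.05, edgeR adjusted p = 3.86e-07), or 0.45 with the length trend removed. The exact permutation test gave p = 0.018, the smallest that 5 mice against 3 allow. For Mrps34, 77.8% of the exon bases are shared with the exons of Nme3, on the same strand, and Mapk8ip3, on the opposite strand. The log2 fold changes of these neighbours were 0.31 and 0.35 (edgeR adjusted p = 0.021 and 0.0076). The value of Mrps34 is thus uncertain, since reads in shared exons may be counted for either gene.

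Mrps12 (Entrez 24030, chr7:28739641-28741821, minus strand) encodes the small-subunit protein next to the decoding site. It was at 14.0, 14.1 and 14.5 CPM in the vehicle-treated FVB mice, and at 21.3, 20.4, 19.0, 23.5 and 23.1 in the vehicle-treated HSALR mice. These groups did not overlap, and its log2 fold change of 0.60 (standard error 0.07, edgeR adjusted p = 2.71e-05) was 0.41 with the length trend removed. Mrps12 shares no exon with another annotated gene. It starts 172 bases from Sars2, the mitochondrial seryl-tRNA synthetase, which is transcribed the other way and had a log2 fold change of 0.23 (edgeR adjusted p = 0.014).

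Mrpl48 (Entrez 52443, chr7:100545779-100608301, minus strand) encodes a large-subunit protein found only in mitochondria. It was at 18.5, 19.0 and 18.5 CPM in the vehicle-treated FVB mice, and at 24.9, 25.7, 23.8, 27.7 and 27.1 in the vehicle-treated HSALR mice. The lowest HSALR mouse was well above the highest control. The log2 fold change of this gene was 0.47 (standard error 0.05, edgeR adjusted p = 2.00e-05). Exons of Rab6a, on the opposite strand, overlap 8.69% of its exon bases. A pseudogene, Mrpl48-ps, is annotated, and reads equally close to both would have been given to a single place.

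Mrpl17, a large-subunit gene with a bacterial counterpart, had a log2 fold change of 0.40 (edgeR adjusted p = 7.9e-05). With a deposited length of 6712 bases it is the longest of the 78 genes, and its value was 0.53 with the length trend removed.

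After AICAR, HSALR mice (n = 5) were again compared to FVB mice (n = 3). Here 33 of the 78 genes were higher in HSALR muscle and 0 were lower (1 at an unadjusted p under 0.05, and 0 by DESeq2 and by limma with voom), which is 42.3% of the genes, while 12.2% of all genes tested were higher and 9.64% lower. The median log2 fold change was 0.13, as compared to 0.00 over all genes. In 37 genes every HSALR mouse was above every FVB mouse, against 15.0% of all genes. Genes classed as found only in mitochondria were higher in 22 of 33 cases, Mrps18a among them, and those with a bacterial counterpart in 11 of 44. The difference between these classes was not tested, and their median lengths were 1213 and 999.5 bases.

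The count was 11 higher and 3 lower (Mrpl55, Mrps16 and Mrps23) with the length trend removed. The higher genes were then 14.1% of the 78, near the 11.0% of all genes that were higher under this setting. The lower genes were 3.85% of the 78, as compared to 9.87% of all genes. The count of higher genes was 18 (23.1%) with the libraries scaled by their size alone, where 10.2% of all genes were higher, and 18 without the AICAR-treated FVB mouse S447, where 8.18% were. The epidermal markers were lower in HSALR mice in 5 of 8 cases here, and 29 genes (37.2%, as compared to 11.6% of all genes) were higher when their summed level was added to the model. With the length trend removed, 8 of the 33 genes found only in mitochondria and 3 of the 44 with a bacterial counterpart were higher.

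The genotype comparisons after vehicle and after AICAR share no mice. Of the genes higher after vehicle, 24 were also higher after AICAR, which is 54.5% of the 44 and 72.7% of the 33. Over the 78 genes the log2 fold changes had the same sign in 73. However, 71 and 72 of the 78 were above 0 in these comparisons, so much of the agreement in sign follows from those counts. Across genes, which are not independent, Pearson's r was 0.77 and Spearman's rho 0.66. The shared calls, the signs and the correlations were not computed over all genes tested.

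After AICAR, Mrpl48, Mrps27 and Mrps34 had the largest increases among the called genes. Mrps27 (Entrez 218506, chr13:99344767-99415562, plus strand) encodes a small-subunit protein found only in mitochondria that belongs to the RNA-binding pentatricopeptide repeat family. It was at 27.3, 23.9 and 26.7 CPM in the vehicle-treated and at 31.4, 31.7 and 31.2 in the AICAR-treated FVB mice. In HSALR mice it was at 32.7, 36.9, 34.7, 33.9 and 34.1 CPM after vehicle and at 41.9, 40.4, 37.3, 42.5 and 38.5 after AICAR. The 4 groups followed each other without overlap, from vehicle-treated FVB to AICAR-treated HSALR mice. Opposite-strand exons of another gene overlap 24.2% of its exon bases. Mrps27 was one of 3 genes, with Mrpl10 and Mrpl37, that were higher in all 4 comparisons. The genotype calls of Mrpl37 were lost with the length trend removed. For Mrps27, the log2 fold change between the genotypes was 0.35 after AICAR (edgeR adjusted p = 6.5e-04) and 0.41 after vehicle (1.27e-04).

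Mrpl48 was at 20.2, 19.2 and 18.8 CPM in the AICAR-treated FVB mice and at 25.7, 26.2, 24.7, 24.4 and 25.6 in the AICAR-treated HSALR mice. The genotypes were again separate (log2 fold change 0.38 ± 0.05 (SE), edgeR adjusted p = 1.78e-04). Between AICAR and vehicle its log2 fold change was 0.05 in FVB mice and -0.03 in HSALR mice, and neither passed the test (edgeR adjusted p = 0.60 and 0.69).

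**Figure D3:**
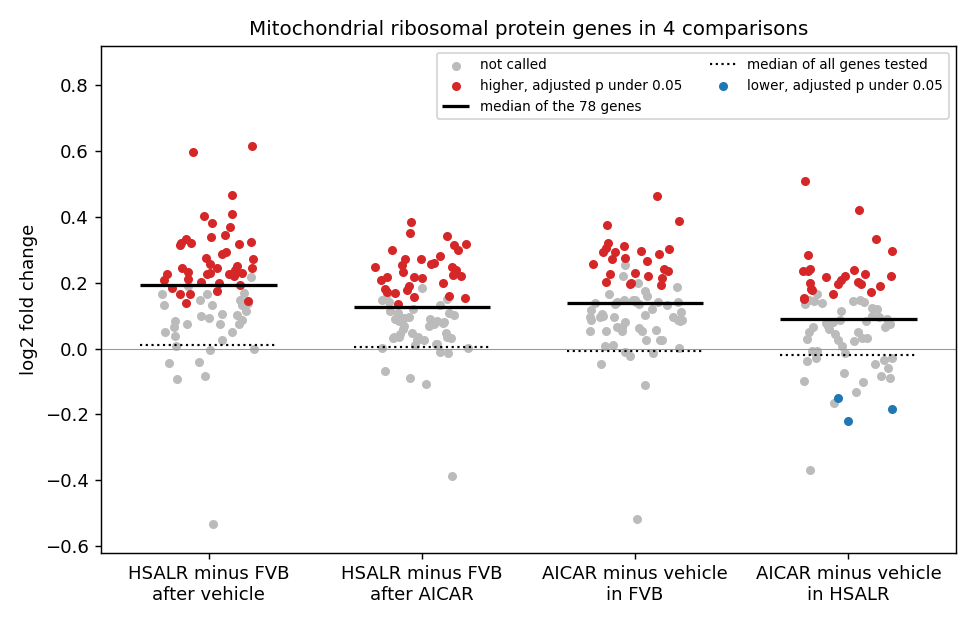
Log2 fold change (y axis) of each of the 78 genes in the 4 comparisons between 2 groups, with the median of the 78 genes (solid line) and of all genes tested (dotted line). Red points were higher and blue points lower at an adjusted p under 0.05, and the medians of the 78 genes were 0.19, 0.13, 0.14 and 0.09 from left to right.

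To see how AICAR bears on these genes without the transgene, AICAR-treated FVB mice (n = 3) were compared to vehicle-treated FVB mice (n = 3). AICAR-treated mice were higher in 25 of the 78 genes (32.1%) and lower in 0 (0 at an unadjusted p under 0.05, and 0 by DESeq2 and by limma with voom), while 8.40% of all genes tested were higher and 4.77% lower. The median log2 fold change was 0.14 (1.10-fold), as compared to -0.01 over all genes, and 72 genes were above 0. In 42 genes every AICAR-treated mouse was above every vehicle-treated mouse, against 18.1% of all genes. Large-subunit genes were higher in 19 of 51 cases and small-subunit genes in 5 of 26. In this comparison length made little difference, with 21 genes higher and 1 lower (Mrpl54) after removal of its trend. Of all genes, 8.77% were then higher and 5.77% lower. The count was 10 (12.8%) with the libraries scaled by their size alone, closer to the 5.91% of all genes that were higher there. It was 13 (16.7%) when only these 6 libraries were fitted, with 5.11% of all genes higher. Without the vehicle-treated mouse S446 it was 14, with 6.29% of all genes higher, and without the AICAR-treated mouse S448 it was 13, with 5.94%. An exact permutation test of 3 mice against 3 cannot go below p = 0.1.

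Mrpl42, Mrpl12 and Mrps12 had the largest increases. Mrpl42 (Entrez 67270, chr10:95480805-95501949, minus strand), a large-subunit gene found only in mitochondria and the most abundant per kilobase, was at 94.4, 92.8 and 78.9 CPM in the vehicle-treated and at 116, 117 and 133 in the AICAR-treated FVB mice. The AICAR-treated mice were all higher (log2 fold change 0.46 ± 0.08 (SE), edgeR adjusted p = 0.0016). The HSALR mice were at 92.1, 91.8, 85.5, 99.2 and 98.7 CPM after vehicle and at 121, 123, 124, 134 and 125 after AICAR. Every AICAR-treated mouse was above every vehicle-treated mouse of either genotype, and the log2 fold change in HSALR mice was 0.42 (edgeR adjusted p = 1.78e-04). Between the genotypes, the log2 fold change was 0.08 after vehicle and 0.03 after AICAR, and neither passed the test (edgeR adjusted p = 0.47 and 0.76).

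Mrpl12 (Entrez 56282, chr11:120484637-120488754, plus strand), with 13.1% of its exon bases overlapped by a gene on the opposite strand, was at 118, 110 and 118 CPM in the vehicle-treated and at 158, 155 and 141 in the AICAR-treated FVB mice. In HSALR mice it was at 122, 133, 117, 143 and 133 CPM after vehicle and at 149, 149, 142, 162 and 162 after AICAR. The groups did not overlap in FVB mice, but among the HSALR mice the highest vehicle-treated mouse was just above the lowest AICAR-treated one. Its log2 fold change was 0.39 in FVB mice and 0.24 in HSALR mice (edgeR adjusted p = 0.0044 and 0.0087).

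Mrps12 was at 17.4, 18.3 and 19.5 CPM in the AICAR-treated FVB mice, above the vehicle-treated FVB mice and overlapping with the lowest of the vehicle-treated HSALR mice. This gave a log2 fold change of 0.38 (standard error 0.08, edgeR adjusted p = 0.0061). In the AICAR-treated HSALR mice it was at 23.38, 23.62, 21.00, 21.79 and 22.04 CPM. These values overlapped with those after vehicle (log2 fold change 0.06, edgeR adjusted p = 0.51). The difference between both AICAR effects was -0.32 on the log2 scale (standard error 0.10, edgeR adjusted p = 0.15).

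**Figure D4:**
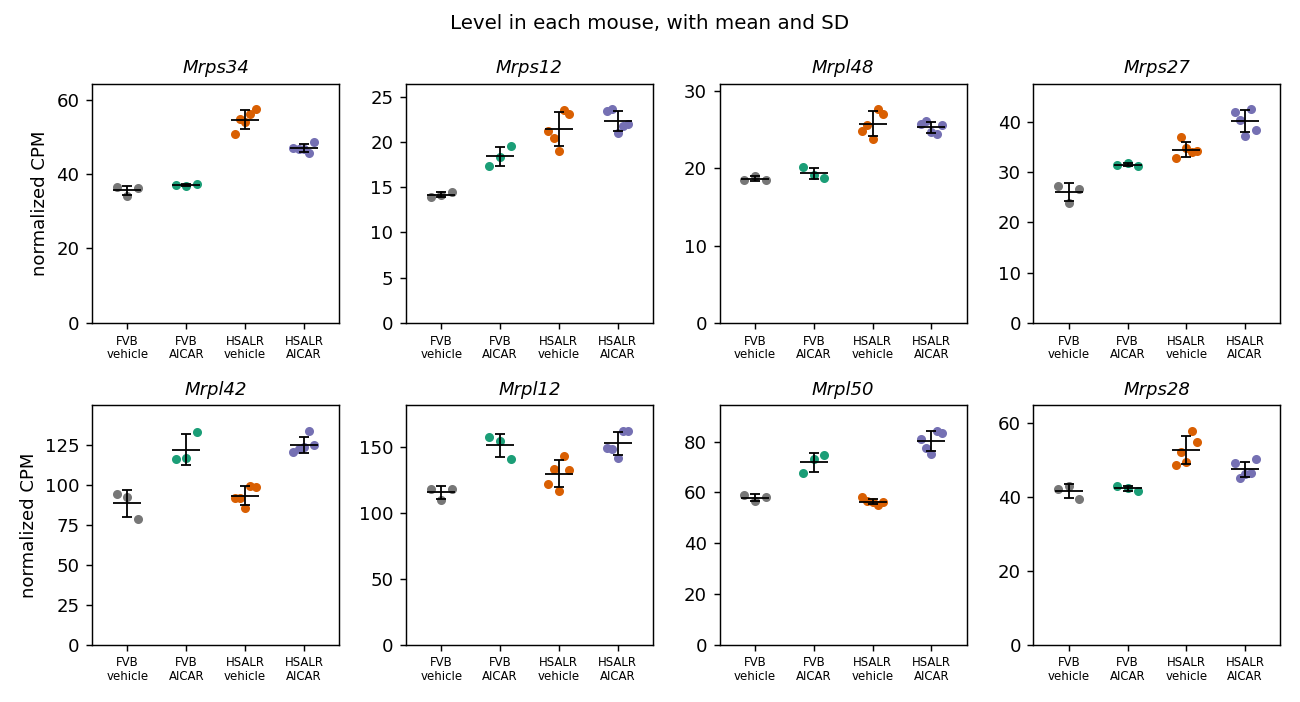
Normalized CPM in each mouse (points) for 8 of the named genes, by genotype and treatment, with the mean and SD of each group (n = 3 per FVB group and 5 per HSALR group). Mrps34, Mrps12, Mrpl48, Mrps27 and Mrps28 separate the genotypes after vehicle. Mrpl42, Mrpl12, Mrpl50, Mrps12 and Mrps27 separate the treatments in FVB mice, as does Mrps34, which was not called there.

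In HSALR mice, AICAR (n = 5) was compared to vehicle (n = 5). Here 25 of the 78 genes were higher after AICAR (32.1%) and 3 were lower, while 13.7% of all genes tested were higher and 13.0% lower. At an unadjusted p under 0.05, 6 were lower, as were 19.5% of all genes. DESeq2 called 4 lower, adding Mrpl52 (5.13%, as compared to 14.6% of all genes), and limma with voom called 3. The median log2 fold change was 0.09 (1.06-fold), as compared to -0.02 over all genes, and 58 genes were above 0. In 22 genes every AICAR-treated mouse was above every vehicle-treated mouse, against 10.2% of all genes. Large-subunit genes were higher in 20 of 51 cases and lower in 1, and small-subunit genes were higher in 5 of 26 and lower in 2. With the libraries scaled by their size alone the count was 9 higher (11.5%) and 6 lower (7.69%), and the median log2 fold change was 0.01, with -0.10 over all genes. Under that scaling 8.57% of all genes were higher and 19.1% lower, so the share of higher genes was near that of all genes. The epidermal markers were lower after AICAR in 8 of 8 cases. With their summed level in the model, 17 genes (21.8%) were higher and 2 (2.56%) lower, against 7.94% and 6.86% of all genes. With the length trend removed the count was 27 higher (34.6%, as compared to 14.1% of all genes) and 4 lower (5.13%, as compared to 14.5%). Endothelial markers were higher after AICAR in 2 of 5 cases, and their part in the result was not tested.

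Mrpl50, Mrpl42 and Mrpl41 had the largest increases. Mrpl50 (Entrez 28028, chr4:49512597-49521083, minus strand) encodes a large-subunit protein found only in mitochondria. It was at 58.0, 56.4, 56.2, 55.1 and 56.1 CPM in the vehicle-treated and at 80.9, 77.3, 75.3, 84.1 and 83.2 in the AICAR-treated HSALR mice. The vehicle-treated mice lay close together and well below every AICAR-treated mouse. The log2 fold change was 0.51 (1.42-fold, standard error 0.04, edgeR adjusted p = 1.4e-06), and the exact permutation test gave p = 0.0079, the smallest that 5 mice against 5 allow. In FVB mice Mrpl50 was at 59.0, 56.5 and 58.3 CPM after vehicle and at 67.7, 73.0 and 74.8 after AICAR (log2 fold change 0.31, edgeR adjusted p = 0.0019). Between the genotypes, Mrpl50 did not pass the test after vehicle (log2 fold change -0.04, edgeR adjusted p = 0.59) and was higher in HSALR mice after AICAR, without overlap (log2 fold change 0.16, edgeR adjusted p = 0.029). The latter call was lost with the length trend removed (0.11, edgeR adjusted p = 0.12).

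Mrpl41 (Entrez 107733, chr2:24972470-24975098, minus strand), another large-subunit gene found only in mitochondria, was at 17.3, 15.5, 16.0, 19.0 and 17.8 CPM in the vehicle-treated and at 19.32, 22.11, 21.17, 22.03 and 23.19 in the AICAR-treated HSALR mice. The groups were separate, but only by a small gap (log2 fold change 0.33 ± 0.07 (SE), edgeR adjusted p = 0.0040). In FVB mice it was at 15.0, 12.9 and 16.3 CPM after vehicle and at 18.03, 18.14 and 16.41 after AICAR, and the log2 fold change of 0.25 did not pass the test (edgeR adjusted p = 0.092).

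The 3 genes that were lower after AICAR in HSALR mice were Mrps34, Mrpl54 and Mrps28, all of which were higher in HSALR than in FVB muscle after vehicle. Both comparisons use the same vehicle-treated HSALR mice, so these calls are not independent. In the genotype comparison 44 of the 78 genes were higher. With the length trend removed, Mrps34 and Mrps28 were still called in that genotype comparison (log2 fold changes of 0.45 and 0.16), but Mrpl54 was not (0.03 in place of 0.22, edgeR adjusted p = 0.77). Mrps34 was at 47.0, 46.7, 46.6, 45.7 and 48.6 CPM in the AICAR-treated HSALR mice and at 37.0, 36.8 and 37.3 in the AICAR-treated FVB mice. AICAR-treated HSALR mice thus lay between vehicle-treated HSALR mice and both FVB groups, without overlap. The log2 fold change between AICAR and vehicle in HSALR mice was -0.22 (standard error 0.04, edgeR adjusted p = 9.7e-04). For the overlapping genes Nme3 and Mapk8ip3 it was -0.44 and -0.38 (edgeR adjusted p = 0.0010 and 0.0016), while their differences between the genotypes after AICAR, 0.14 and -0.02, did not pass the test.

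Mrpl54 (Entrez 66047, chr10:81264722-81266926, minus strand), which encodes a large-subunit protein found only in mitochondria, was at 39.6, 37.6, 38.5, 44.5 and 42.9 CPM in the vehicle-treated and at 36.4, 35.4, 35.0, 33.8 and 38.1 in the AICAR-treated HSALR mice (log2 fold change -0.18, edgeR adjusted p = 0.027). The highest AICAR-treated mouse was within the range of the vehicle-treated mice. In FVB mice it was at 36.4, 36.6 and 31.6 CPM after vehicle and at 33.2, 32.4 and 31.2 after AICAR, which did not pass the test (log2 fold change -0.11, edgeR adjusted p = 0.35).

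Mrps28 (Entrez 66230, chr3:8802146-8923857, minus strand), a small-subunit gene with a bacterial counterpart, was at 48.7, 52.3, 49.6, 57.9 and 55.1 CPM in the vehicle-treated and at 49.3, 45.3, 46.3, 46.7 and 50.3 in the AICAR-treated HSALR mice (log2 fold change -0.15, edgeR adjusted p = 0.043). These groups overlapped. In FVB mice it was at 42.3, 43.1 and 39.6 CPM after vehicle and at 43.0, 42.4 and 41.7 after AICAR, below every HSALR mouse. Without the HSALR mouse S455, S458, S459 or S462, each left out in turn, Mrps34 was the only gene of the 3 that was still called lower. The call of Mrps28 was also lost without S452, S454 or S460. The same held with the epidermal markers in the model, without a filter on low counts, and when only the groups compared were fitted.

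The AICAR comparisons in FVB and HSALR mice share no mice. Of the 25 genes higher in each, 18 were the same, which is 72.0% of either list. Across the 78 genes the log2 fold changes had the same sign in 62 cases, with a Pearson's r of 0.74. With 72 and 58 genes above 0 in FVB and HSALR mice, much of the agreement in sign follows from those counts. The shared calls, the signs and the correlation were not computed over all genes tested. The difference between both AICAR effects was tested directly, and 0 of the 78 genes passed, while 0.691% of all genes tested did. At an unadjusted p under 0.05 there were 10 genes (12.8%, as compared to 15.0% of all genes), 9 of them with the smaller value in HSALR mice. DESeq2 called 1 gene, Mrps34, with the smaller value in HSALR mice (1.28%, as compared to 2.20% of all genes). Counted in that direction, the share of all genes at an unadjusted p under 0.05 was 8.54%. With edgeR, Mrps34 was called when the vehicle-treated HSALR mouse S451 was left out. The median of the difference over the 78 genes was -0.05 on the log2 scale.

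**Figure D5:**
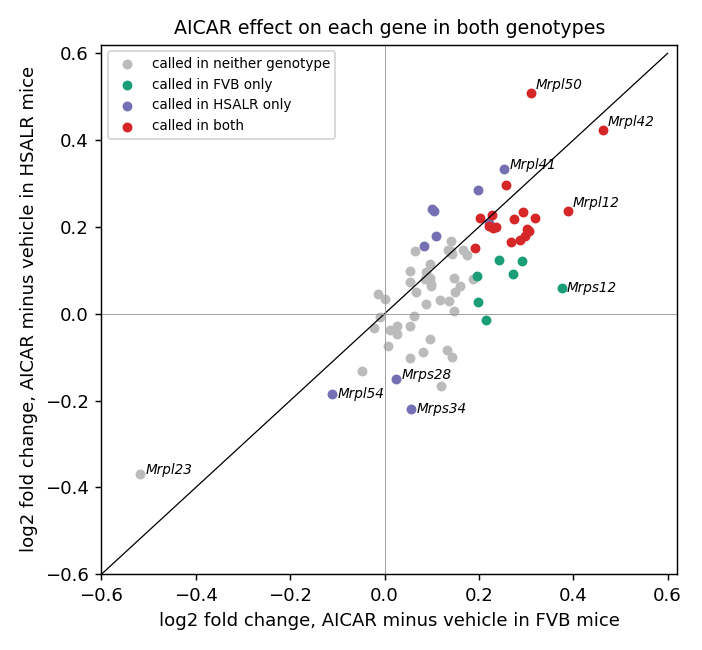
Log2 fold change between AICAR and vehicle of each of the 78 genes in FVB mice (x axis) and in HSALR mice (y axis), coloured by where the gene was called at an adjusted p under 0.05; the line marks equal values. Of the 25 genes higher in each genotype 18 are shared, and Mrps34, Mrpl54 and Mrps28 lie below 0 on the y axis.

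Considering the 4 comparisons together, 3 genes were called in all 4 (3.85%), 10 in 3 (12.8%), 37 in 2 (47.4%), 14 in 1 (17.9%) and 14 in 0 (17.9%). Over all genes tested, the shares were 1.57%, 5.30%, 21.2%, 24.03% and 47.9%. These comparisons share groups of mice, so the counts are not independent. The 14 genes called in none were Mrpl1, Mrpl14, Mrpl19, Mrpl22, Mrpl23, Mrpl28, Mrpl33, Mrpl35, Mrps5, Mrps15, Mrps16, Mrps18c, Mrps23 and Mrps25. They include Mrpl33, which was among the most abundant genes per kilobase, and Mrpl19, Mrpl23 and Mrps25, which were the least abundant.

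Some genes were followed for what their proteins are known to be. The proteins of Mrps18a, Mrps18b and Mrps18c descend from a single bacterial protein. In the class counts above, only Mrps18c was placed with the genes that have a bacterial counterpart. That of Mrps18c sits in the small subunit at the ancestral place, that of Mrps18b elsewhere in the small subunit, and that of Mrps18a in the large subunit. Mrps18a (chr17:46111004-46128908, plus strand) was at 42.6, 41.4 and 42.3 CPM in vehicle-treated and at 47.7, 48.7 and 48.5 in AICAR-treated FVB mice. The HSALR mice were at 47.7, 53.4, 43.4, 47.7 and 44.6 CPM after vehicle and at 61.8, 58.5, 52.3, 61.9 and 53.9 after AICAR. It was highest in AICAR-treated HSALR mice, where 4 of 5 mice were above every other mouse. Its log2 fold change was 0.28 for AICAR in HSALR mice and 0.26 for the genotype after AICAR (edgeR adjusted p = 0.0028 and 0.017). The latter was 0.13 and not called with the length trend removed (edgeR adjusted p = 0.19).

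Mrps18b (chr17:35910380-35916440, minus strand), with 30.5% of its exon bases overlapped by a gene on the opposite strand, was at 27.0, 26.4 and 25.5 CPM in vehicle-treated and at 30.6, 29.8 and 31.3 in AICAR-treated FVB mice. In HSALR mice it was at 28.3, 32.4, 30.4, 34.1 and 31.9 CPM after vehicle and at 33.5, 30.2, 29.6, 31.4 and 30.9 after AICAR. The vehicle-treated FVB mice were thus below the other 3 groups, which overlapped. Its log2 fold change was 0.26 for the genotype after vehicle and 0.22 for AICAR in FVB mice (edgeR adjusted p = 0.0051 and 0.043). The genotype value was 0.11 and was not called with the length trend removed (edgeR adjusted p = 0.13).

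Mrps18c (chr5:100798759-100804467, plus strand), with 23.2% of its exon bases overlapped by a gene on the same strand, was at 17.1, 19.7 and 17.5 CPM in vehicle-treated FVB, 20.2, 19.3 and 16.8 in AICAR-treated FVB, 17.95, 19.71, 19.32, 22.55 and 21.86 in vehicle-treated HSALR and 20.4, 21.9, 20.1, 22.4 and 21.9 in AICAR-treated HSALR mice. All neighbouring groups overlapped, and no comparison passed the test.

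Mrps30 (chr13:118380110-118387252, minus strand), whose protein is in the large subunit and whose exon bases are overlapped to 9.35% by a gene on the opposite strand, was at 28.1, 25.3 and 29.2 CPM in vehicle-treated and at 31.8, 31.8 and 30.9 in AICAR-treated FVB mice. The HSALR mice were at 34.8, 35.7, 34.3, 35.6 and 37.2 CPM after vehicle and at 37.3, 38.9, 36.6, 39.4 and 36.4 after AICAR. Every HSALR mouse was above every FVB mouse, and the log2 fold change between genotypes was 0.37 after vehicle and 0.26 after AICAR (edgeR adjusted p = 1.08e-04 and 0.0025).

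Mrps36 (chr13:100735940-100744659, minus strand), the gene whose product is not part of the ribosome, was at 18.2, 17.1 and 16.8 CPM in vehicle-treated and at 19.9, 20.6 and 21.2 in AICAR-treated FVB mice. In HSALR mice it was at 20.3, 19.8, 17.8, 21.4 and 20.5 CPM after vehicle and at 21.9, 22.4, 20.4, 21.6 and 22.5 after AICAR. The vehicle-treated FVB mice were lowest, with 1 vehicle-treated HSALR mouse within their range. Its log2 fold change was 0.20 for the genotype after vehicle and 0.24 for AICAR in FVB mice (edgeR adjusted p = 0.021 and 0.025). Neither was called with the length trend removed, at 0.02 and 0.18 (edgeR adjusted p = 0.83 and 0.066).

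Exons of 33 of the 78 genes overlap those of another annotated gene. After vehicle, 22 of the 45 genes without such overlap (48.9%, median log2 fold change 0.17) and 22 of the 33 with it (66.7%, median 0.21) were higher in HSALR mice, as compared to 15.4% of all genes. With the length trend removed these counts were 11 of 45 and 7 of 33, with medians of 0.04 and 0.08. For AICAR in HSALR mice, 18 of the 45 were higher (40%) and 2 lower, and 7 of the 33 were higher (21.2%) and 1 lower, as compared to 13.7% and 13.0% of all genes. The differences between both classes were not tested.

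Some of the promoters are shared with a neighbouring gene. In 25 of the 78 genes the start lay within 500 bases of that of a protein-coding gene transcribed the other way, and Mrpl46 and Mrps11 form such a pair with each other. After vehicle, 18 of these 25 genes were higher in HSALR mice, and 26 of the other 53, as compared to 15.4% of all genes. For AICAR in FVB mice the counts were 11 of 25 and 14 of 53, as compared to 8.40% of all genes. In HSALR mice they were 8 of 25 and 17 of 53, as compared to 13.7% of all genes. Of the 22 tested neighbours outside the set, 3 were higher and 3 were lower in HSALR than in FVB mice after vehicle. In 2 of the 22 pairs both genes were higher. In 2 pairs the gene of the set was higher and its neighbour lower. In 11 pairs the gene of the set was higher and its neighbour was not called. Of the 26 genes with the ETS letters 18 were higher in HSALR mice after vehicle, of the 12 with the YY1 letters 7, of the 7 with the NRF1 letters 5, and of the 31 with a window but none of these motifs 14. For AICAR in FVB mice these counts were 8, 5, 2 and 9, as compared to 8.40% of all genes. The differences between the classes were not tested.

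The other genes needed for mitochondrial translation were examined from lists of the pathway, whose counts are read against the share of all genes higher in the same comparison (15.4% and 12.2% between the genotypes after vehicle and after AICAR, 8.40% and 13.7% for AICAR in FVB and HSALR mice). Of 5 further subunit genes of the mitochondrial ribosome (Dap3, Ptcd3, Chchd1, Aurkaip1 and Gadd45gip1), 2 were higher in HSALR mice after vehicle, Gadd45gip1 and Chchd1 (log2 fold changes of 0.24 and 0.18), and 0 were lower. Only Gadd45gip1 was higher after AICAR (0.24). Of these 5, 0 were called for AICAR in FVB mice, and Dap3 was higher for AICAR in HSALR mice (0.13).

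Of 26 genes for assembly of the ribosome and modification of its RNA, 7 were higher and 0 lower in HSALR mice after vehicle, and 8 were higher and 2 lower after AICAR. For AICAR, 3 were higher in FVB mice and 4 in HSALR mice, and 0 were lower, which is 11.5% and 15.4% of the list and near the share of all genes. Noa1, a GTPase needed for the small subunit, and Nsun4, which methylates its RNA, were higher in both genotypes, with log2 fold changes of 0.64 and 0.31 in FVB mice and of 0.44 and 0.43 in HSALR mice. Mrm1, a methyltransferase for the RNA of the large subunit, was higher with AICAR in FVB mice (0.47) and lower in HSALR than in FVB mice after AICAR (-0.72). Mettl15, another methyltransferase, was higher in HSALR mice after vehicle (0.52) and after AICAR (0.44).

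Of 15 translation factor genes, 4 (26.7%) were higher in FVB mice and 8 (53.3%) in HSALR mice after AICAR, and 0 were lower. Between the genotypes 2 were higher (13.3%) and 1 lower after vehicle and 2 were higher and 2 lower after AICAR, near the share of all genes. Gfm1, an elongation factor, had log2 fold changes of 0.34 and 0.19 for AICAR in FVB and HSALR mice. Those of Tufm, another elongation factor, were 0.29 and 0.26, and those of Taco1, an activator of translation of a cytochrome oxidase subunit, were 0.32 and 0.33. Taco1 was lower in HSALR than in FVB mice after vehicle (-0.24) and after AICAR (-0.23).

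Of 20 genes for charging mitochondrial tRNAs, 5 (25%) were higher and 0 lower in HSALR mice after vehicle, and 2 (10%, a share below that of all genes) were higher and 1 lower after AICAR. For AICAR, 3 (15%) were higher and 0 lower in FVB mice, and 6 (30%) were higher and 2 lower in HSALR mice. Fars2, the phenylalanyl-tRNA synthetase, was higher in both genotypes, with log2 fold changes of 0.35 and 0.28. Of 10 genes for transcription and copying of mitochondrial DNA, 0 were higher and 1 lower in HSALR mice after vehicle, 1 was higher and 1 lower after AICAR, and 1 and 3 were higher for AICAR in FVB and HSALR mice. Tfb2m, a mitochondrial transcription factor, was lower in HSALR mice after vehicle (-0.20) and after AICAR (-0.22), and higher for AICAR in FVB (0.21) and HSALR mice (0.18).

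Among 8 genes for nuclear regulators of mitochondrial genes, 0 were called between the genotypes after vehicle and 3 were lower in HSALR mice after AICAR. For AICAR, 3 were higher in FVB and 2 in HSALR mice, and 0 were lower. Ppargc1a, which encodes PGC-1alpha, was at 52.6, 52.3 and 56.7 CPM in vehicle-treated and at 118, 171 and 222 in AICAR-treated FVB mice. The HSALR mice were at 51.9, 86.0, 57.3, 40.6 and 43.7 CPM after vehicle and at 112, 110, 71.0, 80.6 and 92.4 after AICAR. All AICAR-treated FVB mice were above every other mouse, and in HSALR mice the treatments overlapped. The log2 fold change for AICAR was 1.66 in FVB mice and 0.74 in HSALR mice (edgeR adjusted p = 0.0011 and 0.014). When the AICAR effects of both genotypes were compared directly, 0 of the 8 genes passed the test, Ppargc1a included. After AICAR, Ppargc1a was lower in HSALR than in FVB mice (-0.87), as were its relative Pprc1 (-0.53) and the receptor gene Esrra (-0.23).

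Cytosolic ribosomal protein genes, which make up the other ribosome of the cell, were set beside the mitochondrial ones. In HSALR mice after vehicle, 64 of 83 were higher and 0 lower, with a median log2 fold change of 0.29, and after AICAR 24 were higher and 1 lower, with a median of 0.14. For AICAR in FVB mice, 7 were higher and 0 lower (median 0.10), which is 8.43% and so the share of all genes. For AICAR in HSALR mice, 3 were higher and 7 lower (median -0.04), both below the shares of all genes, while 25 of the 78 mitochondrial ribosomal protein genes were higher and 3 lower. The length trend was not removed from the cytosolic counts.

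Markers of other cell types and of fibre type also moved between the groups, and their part in the results was not tested. All 5 endothelial markers were lower in HSALR mice after vehicle and 2 after AICAR, and 2 of the 5 were higher for AICAR in HSALR mice, with a median log2 fold change of 0.19. Their summed level was 273 to 299 CPM in vehicle-treated and 268 to 294 in AICAR-treated FVB mice, and 180 to 231 and 219 to 240 in vehicle-treated and AICAR-treated HSALR mice. Of 8 markers of slow or oxidative fibres, which include Myh2 of type IIA fibres, 4 were lower in HSALR mice after vehicle. In the other comparisons 0 were called. Their summed level was 7693, 9603 and 16593 CPM in vehicle-treated FVB mice, the highest being mouse S450. It was 5501 to 7157 CPM in vehicle-treated HSALR mice. Of 6 macrophage markers, 2 were higher in HSALR mice after vehicle, and for AICAR in HSALR mice 2 were higher and 1 lower. Of 6 fibroblast markers, 4 were lower for AICAR in HSALR mice, and of the adipocyte and Schwann cell markers 0 were called in any comparison. Of 8 skeletal muscle markers, 2 were higher and 2 lower in HSALR mice after vehicle, and 2 higher and 1 lower after AICAR. For AICAR, 0 of these were called in either genotype.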

How the data were processed

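RNA of gastrocnemius muscle was sequenced by the authors from 16 mice, 1 library each, with stranded libraries of polyadenylated RNA. The authors used STAR 2.5.2a with the mm10 assembly of the mouse for mapping, gave reads with several equally good places 1 place, and counted with QuasR the reads that start in any RefSeq exon. The deposited counts are whole numbers per Entrez gene, not normalized, with a gene length. Whether strand was used in counting is not given in the sources used here. Every row names a gene, and 0 columns of per-sample values lacked a sample. Symbols and positions were taken from RefSeq for GRCm38.p6 (24374 of 24454 identifiers matched), and exon overlaps and GC content from GENCODE M21, the same assembly.

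The deposited values were tested with edgeR 4.0.16 (R 4.3.3). The steps were TMM scaling, the filterByExpr filter over the 4 groups, and glmQLFit and glmQLFTest with 1 mean per group, with Benjamini-Hochberg adjustment over all 15487 genes tested and a threshold of 0.05. Genes past it are called higher or lower. CPM are counts per 1000000 counts of the TMM-scaled library. Single genes were also compared with two-sided exact permutation tests of the mean log2 CPM. The tests were tested on simulated data. Replicates are single mice of a group.

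The genes, the lists and the rules were chosen with earlier results of these data known. Values by mouse are given for the 3 called genes with the largest positive and the largest negative log2 fold change of each comparison between 2 groups, for genes whose AICAR effects differ, and for Mrps18a, Mrps18b, Mrps18c, Mrpl12, Mrps12, Mrps30 and Mrps36 for their roles. From each list, at most 3 called genes with the largest change per comparison were named. Mrpl17 and the neighbours of Mrps34 and Mrps12 were chosen after their values were seen.

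Alternatives were DESeq2 1.42.0, limma 3.58.1 with voom, RLE and library-size scaling, other filters on low counts, robust dispersions, an epidermal marker covariate, fits to the compared groups alone, and leaving out every mouse in turn. Removal of trends with gene length or GC content, fitted in each library, was added after seeing the data.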

Additional observations from a re-analysis of the deposited data

Results flagged for a closer look

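In the 2 groups of 5 mice, 32 sets of values (15 named genes and the summed level) were examined for a mouse that stood apart by Dixon's criterion, and 0 had one, while chance gives about 1 set in 20. For Mrps34 and Mrps28, every AICAR-treated FVB mouse was above the mean of the vehicle-treated FVB mice, and every AICAR-treated HSALR mouse was below the mean of the vehicle-treated HSALR mice. The AICAR effect in HSALR mice minus that in FVB mice was -0.27 on the log2 scale for Mrps34 (edgeR adjusted p = 0.065) and -0.17 for Mrps28 (edgeR adjusted p = 0.35), so neither difference passed the test.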

How the results depend on the processing

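No median over the 78 genes changed sign under the alternatives run. With the gene length trend removed, 18 genes were higher and 5 lower for the genotype after vehicle (median log2 fold change 0.069), 11 higher and 3 lower for the genotype after AICAR (0.054), and 1 lower for AICAR in FVB mice. With library-size scaling, 18 genes were higher for the genotype after AICAR, 10 for AICAR in FVB mice (median 0.092), and 9 higher and 6 lower for AICAR in HSALR mice (median 0.010). A fit of only the groups compared gave 13 higher genes for AICAR in FVB mice, and DESeq2 called 1 gene lower in the difference between AICAR effects. The cause of these shifts was not tested. Leaving out single mice gave 0 to 1 lower genes for the genotype after vehicle (Mrps23 without S446), 18 to 33 higher genes for the genotype after AICAR, 13 to 19 higher genes for AICAR in FVB mice, 1 to 4 lower genes for AICAR in HSALR mice, and 0 to 1 lower genes for the difference between AICAR effects. Of the values of single named genes, 0 changed sign with a call, 31 calls were lost and 3 gained under other settings, and 39 were lost and 5 gained without single mice. No paired analysis was possible because mice of different groups share no identifier.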
